A study of Caenorhabditis elegans with 6 samples.

Results

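The genes described here are those of fatty acid and sphingolipid metabolism in *Caenorhabditis elegans*. They were taken from the 2 deposited tables of comparisons as the probe sets whose gene symbol begins with *fat-*, *elo-*, *fasn-*, *dgat-*, *acs-*, *acdh-*, *acox-*, *ech-*, *cpt-*, *lipl-*, *atgl-*, *asah-*, *asm-*, *sms-* or *hyl-*, or is *pod-2*. This gave 16 probe sets of 16 genes out of 29317 probe sets on the array. RNA of whole wild-type N2 worms was read on the Affymetrix Gene 1.1 ST array for *C. elegans*, with 6 arrays in 3 groups of 2, titled as independent trials 1 and 2. All worms were synchronized by bleaching, were placed in S medium as L1 larvae 16 to 18 h after hatching, and were kept there for 48 h at 20 °C. The water group received no solvent, the DMSO group received 0.4% DMSO, and the baicalein group received 100 µM baicalein, a plant flavone, added from a stock in DMSO at the same final 0.4%. The labels give every group the age of 3 days after hatching and the stage of young adult. Baicalein against DMSO is therefore the comparison for the flavone, and DMSO against water that for its solvent. The groups also differed in markers of stage, as given below. The 2 comparisons share the DMSO arrays, so an unusual DMSO value moves both, in opposite directions.

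Worms build saturated fatty acids with a single large synthase, then lengthen them with elongases and introduce double bonds with desaturases, which gives them a full set of polyunsaturated fatty acids without a dietary source. Before a fatty acid can be stored in triglyceride or broken down it has to be joined to coenzyme A by an acyl-CoA synthetase, and beta-oxidation in mitochondria and peroxisomes then shortens the chain through a dehydrogenase or oxidase step followed by a hydratase step. The intestine is the main fat store of the worm and also makes the yolk that carries lipid to the oocytes. Sphingolipids are built on a branched long-chain base, and ceramidases split ceramide into that base and a fatty acid.

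Values are log2 RMA values, in which 1 unit is a doubling of the probe set's signal, and they are compared here between groups for 1 probe set at a time. The median of all values on the 6 arrays was 1.51, and every member lay above it on every array, with a lowest member value of 2.07. Array medians lay between 1.42 and 1.59 and upper quartiles between 2.46 and 3.26, so the arrays did not share a single distribution. The limma model (lmFit and eBayes) was fitted to all 29317 probe sets, and a difference was called where its Benjamini-Hochberg adjusted p over all of them was under 0.05. The number of arrays limits the precision. Each p-value rests on how far the 2 arrays of a group lay apart, taken over all 3 groups together and moderated by the spread of all probe sets.

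The arrays also differed strongly in genes that mark stages and tissues, and the label of young adult was not borne out equally in the 3 groups. The yolk genes *vit-1* and *vit-2*, the 2 of 6 listed yolk genes that the tables name, had a mean log2 level of 1.26 to 1.59 on the water arrays, at the median of all values, against 9.18 to 9.25 with DMSO and 9.08 to 9.19 with baicalein. The 8 named of 9 oocyte and eggshell markers averaged 2.25 to 2.98 with water, 8.20 to 8.25 with DMSO and 6.56 to 6.61 with baicalein. The 4 named of 6 germline markers averaged 1.55 to 1.77, 5.57 to 5.60 and 3.71 to 4.09 in the same order. Molting genes mostly went the other way, with 8 named of 10 averaging 6.07 to 6.10 with water, 2.52 on both DMSO arrays and 1.85 to 2.09 with baicalein. From water to DMSO 7 of these were called lower and 1, *ptr-2*, higher. From DMSO to baicalein only *ptr-2* and *nhr-23* were called, both lower, and the median log2 difference of the list was 0.19. The 8 named of 12 intestinal markers averaged 6.51 to 6.71 with water, 5.79 to 5.97 with DMSO and 6.70 to 6.73 with baicalein. The intestinal list was split, with 2 genes called higher and 3 lower from water to DMSO. From water to baicalein 4 were called higher and 3 lower. The largest rise with baicalein in this list was that of the metallothionein gene *mtl-2*, with log2 differences of 2.59 from water and 2.57 from DMSO. The paper also reports *mtl-2* as raised by baicalein. The baicalein average of the intestinal list rests in part on this gene, and an average without it was not taken. Markers of 3 further tissues were lowest with DMSO. The 5 muscle markers averaged 6.43 to 6.45 with water, 5.58 to 5.62 with DMSO and 6.29 on both baicalein arrays, the 3 named of 5 neuronal markers 7.96 to 7.97, 6.34 to 6.44 and 7.37 to 7.53, and the 4 named of 9 hypodermis and cuticle markers 7.32 to 7.58, 2.44 to 3.05 and 3.97 to 4.17. The 3 named of 5 sperm markers averaged 1.59 to 1.76, 4.85 to 4.92 and 5.90 to 6.04. In whole worms, fewer cells of a type and less RNA per cell cannot be told apart, and the part of these shifts in the results below was not tested. An effect of a treatment on the lipid genes and a difference of stage between the groups cannot be told apart either.

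Baicalein worms differed from DMSO worms in 6 of the 16 genes. The desaturase gene *fat-5*, the acyl-CoA synthetase gene *acs-2*, the dehydrogenase gene *acdh-7* and the hydratase gene *ech-7* rose 1.69- to 2.91-fold, *acs-4* and *acdh-13* fell, and 10 genes did not pass the test. Over all probe sets 8.76% were called in this comparison, 1.73% higher and 7.03% lower (507 and 2060 probe sets, against 1276 and 1503 after a second quantile normalization and 1403 and 1899 after a cyclic loess), and among the 8673 probe sets at least as bright as the dimmest member 24.8% were called. The tables that name the genes list only probe sets with an unadjusted p of 0.05 or less in the authors' own test of this experiment, so these counts describe the members and are no independent evidence. Of the 16 genes, 10 are named in the table of baicalein against DMSO only, 4 in that of DMSO against water only (*dgat-2*, *fasn-1*, *fat-1* and *lipl-7*), and 2 in both (*acox-1.3* and *asah-1*). Among the 3619 probe sets of the first table, 8.93% were called higher and 37.9% lower in the same fit. The arrays of both groups did not overlap in 14 of the 16 genes, against 46.3% of all probe sets. The median log2 difference of the 16 genes was 0.48, against 0.05 over all probe sets.

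DMSO worms differed from water worms in 11 of the 16 genes. The ceramidase gene *asah-1* and the genes *fat-1*, *acdh-13* and *acox-1.3* rose, while *dgat-2*, *fasn-1*, *fat-5*, *acs-2*, *acs-19*, *acdh-7* and *ech-7* fell. This comparison called 27.5% of all probe sets, 10.9% higher and 16.7% lower. It called 53.3% of those at least as bright as the dimmest member. The genes were named through these same arrays, so the count of 11 is a description. Among the 3619 probe sets of the table of baicalein against DMSO, 38.6% were called higher and 13.9% lower here. Among the 1982 of the table of DMSO against water these shares were 18.7% and 18.8%. The groups did not overlap in any of the 16 genes, against 73% of all probe sets. The median log2 difference was -0.35, against 0.09 over all probe sets.

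**Figure D1:**
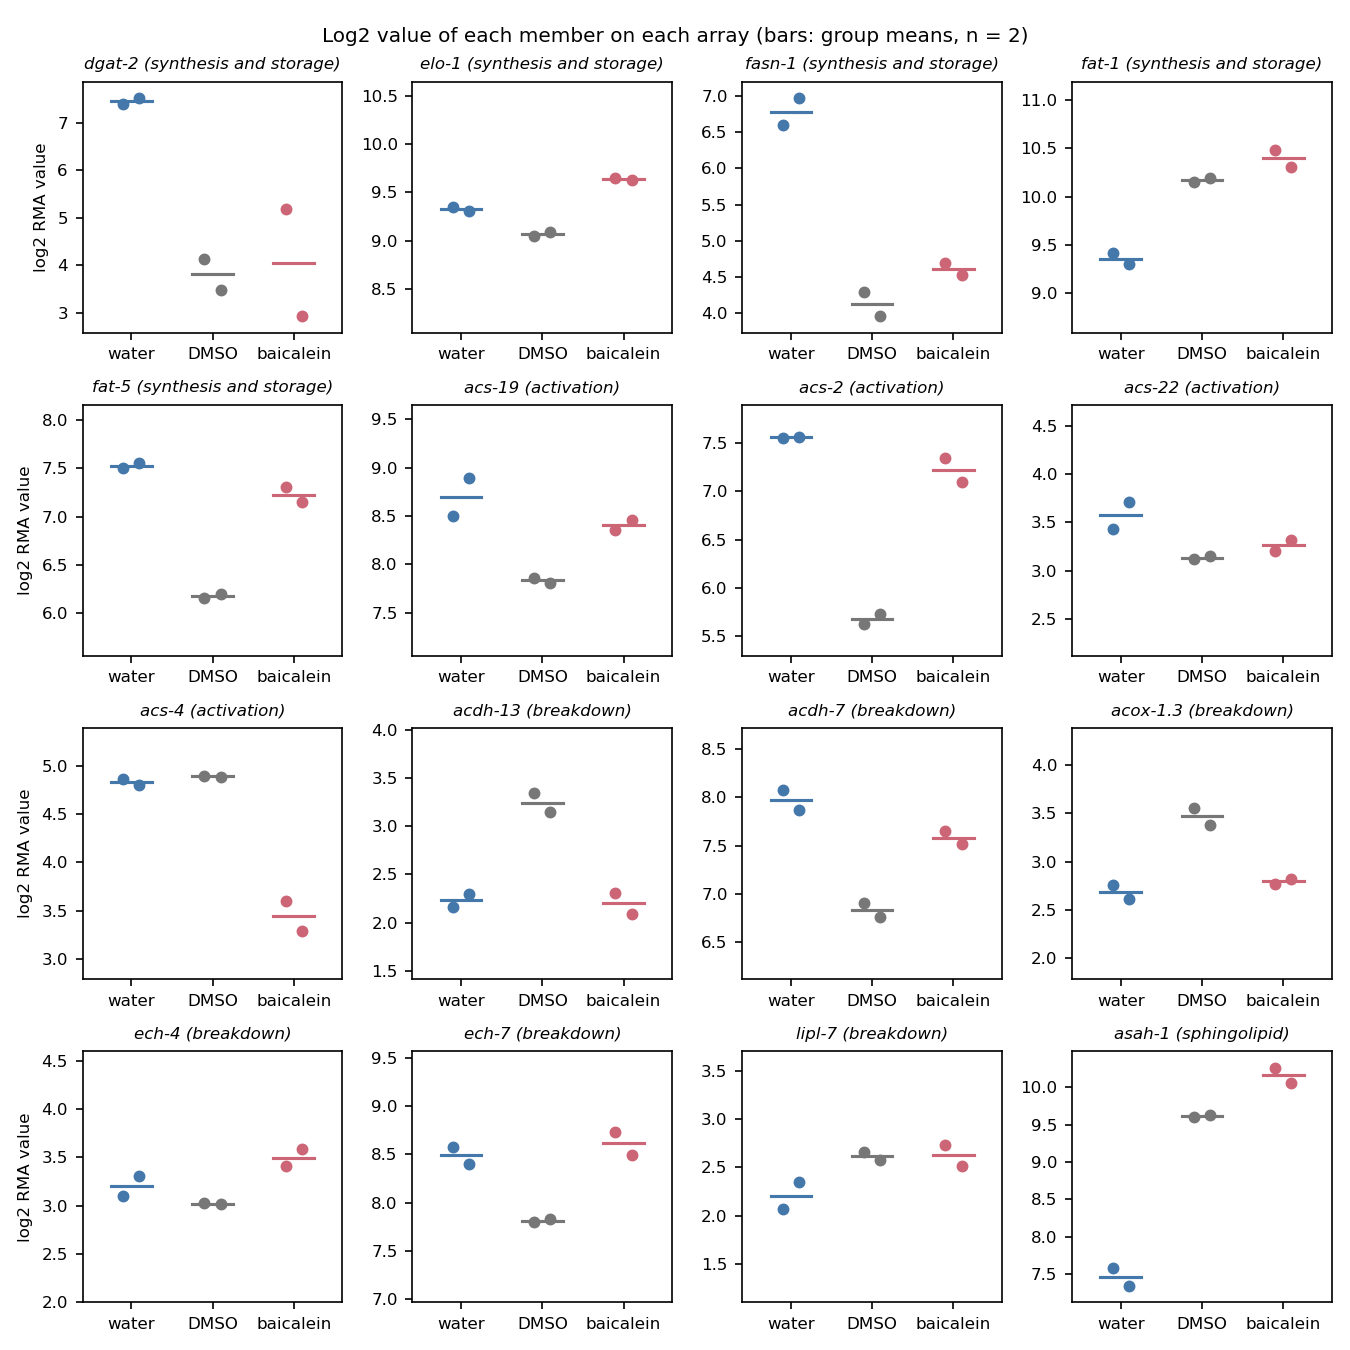
Log2 RMA value (vertical axis, each panel with its own range) of each of the 16 genes on each array, with points for the 2 arrays of the water, DMSO and baicalein groups and bars for their means. The widest pair is *dgat-2* with baicalein (5.18 and 2.93), followed by *dgat-2* with DMSO (4.14 and 3.49).

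Among the genes of synthesis and storage, the fatty acid synthase gene *fasn-1* was lower in both solvent-containing groups than with water. Its log2 values were 6.60 and 6.97 with water, 4.29 and 3.96 with DMSO, and 4.69 and 4.53 with baicalein. The groups did not overlap, and both solvent-containing groups lay far below water. The fall from water to DMSO was 6.31-fold (log2 difference -2.66, SE 0.21, adjusted p = 0.000259 from limma), and that from water to baicalein was 4.51-fold (adjusted p = 0.000781). Between baicalein and DMSO the log2 difference was 0.49, with a 95% interval from -0.03 to 1.00 (adjusted p = 0.269). The fall with DMSO was called in all alternatives run.

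The gene *dgat-2* encodes a diacylglycerol acyltransferase, which makes triglyceride from diacylglycerol and an acyl-CoA. On the log2 scale it read 7.38 and 7.52 with water, 4.14 and 3.49 with DMSO, and 5.18 and 2.93 with baicalein. The baicalein arrays lay on either side of the DMSO arrays, and both groups were below water. The fall from water to DMSO was 12.4-fold (log2 difference -3.63, SE 0.67, limma adjusted p = 0.00772) and that from water to baicalein 10.5-fold (adjusted p = 0.0135). Without DMSO replicate 2 the fall with DMSO was not called (adjusted p = 0.0673). The log2 difference of baicalein from DMSO was 0.24, with a 95% interval from -1.37 to 1.84, and it was 1.36 without baicalein replicate 2 (adjusted p = 0.0489) and -0.89 without baicalein replicate 1, so its sign rested on single arrays.

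The desaturase gene *fat-5*, whose enzyme introduces the first double bond, mainly into palmitic acid, fell with DMSO and was higher with baicalein. The arrays gave it log2 values of 7.50 and 7.56 with water, 6.16 and 6.20 with DMSO, and 7.31 and 7.15 with baicalein. The DMSO arrays were the lowest by a wide margin, and the baicalein arrays lay just under the water arrays. The fall from water to DMSO was 2.55-fold (log2 difference -1.35, SE 0.16, limma adjusted p = 0.0014), and the rise from DMSO to baicalein 2.07-fold (log2 difference 1.05, SE 0.16, adjusted p = 0.0154). As a log2 value, the difference of baicalein from water was -0.30, with a 95% interval from -0.69 to 0.09 (adjusted p = 0.23).

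The omega-3 desaturase gene *fat-1* was higher in both solvent-containing groups. Its log2 values were 9.41 and 9.30 with water, 10.15 and 10.19 with DMSO, and 10.49 and 10.31 with baicalein. The 3 groups were in that order with no overlap, and the step between DMSO and baicalein was the smaller one. The rise from water to DMSO was 1.76-fold (log2 difference 0.81, SE 0.17, limma adjusted p = 0.0123), and from water to baicalein 2.06-fold (adjusted p = 0.00613). Leaving out any 1 water or DMSO array ended the call of DMSO against water (adjusted p 0.0556 to 0.0969). Between baicalein and DMSO the log2 difference was 0.23, with a 95% interval from -0.17 to 0.63.

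The elongase gene *elo-1* acts in the making of the polyunsaturated fatty acids that *fat-1* desaturates. On the log2 scale it read 9.35 and 9.31 with water, 9.04 and 9.09 with DMSO, and 9.65 and 9.63 with baicalein. The arrays of a group differed little and the groups did not overlap, with DMSO lowest and baicalein highest. The log2 difference of baicalein from DMSO was 0.58, with a 95% interval from 0.20 to 0.95, and it did not pass the test (limma adjusted p = 0.0792). Over the alternatives that adjust p, its adjusted p ranged from 0.011 with a variance that follows intensity to 0.43 after a cyclic loess, where the log2 difference was 0.25.

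Among the 4 acyl-CoA synthetase genes, *acs-2* fell with DMSO and was higher with baicalein. Its enzyme acts at the mitochondria in fatty acid breakdown, and the gene is known as a target of the nuclear receptor NHR-49 that is switched on by fasting. The arrays gave it log2 values of 7.55 and 7.56 with water, 5.63 and 5.73 with DMSO, and 7.34 and 7.09 with baicalein. Both DMSO arrays stood apart below the other 4. The fall from water to DMSO was 3.68-fold (log2 difference -1.88, SE 0.17, limma adjusted p = 0.000451), and the rise from DMSO to baicalein was 2.91-fold (log2 difference 1.54, SE 0.17, adjusted p = 0.00749). The baicalein mean lay 82.0% of the way from the DMSO mean to the water mean, and its log2 difference from water was -0.34, with a 95% interval from -0.75 to 0.08 (adjusted p = 0.206).

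The gene *acs-4*, an acyl-CoA synthetase gene of the same family, behaved otherwise. Its log2 values were 4.86 and 4.80 with water, 4.90 and 4.88 with DMSO, and 3.60 and 3.28 with baicalein. The water and DMSO arrays all lay between 4.80 and 4.90, and both baicalein arrays were lower. The fall from DMSO to baicalein was 2.72-fold (log2 difference -1.45, SE 0.18, limma adjusted p = 0.00918), and that from water to baicalein 2.62-fold (adjusted p = 0.00257). After a second quantile normalization these log2 differences were -0.82 and -0.80 (adjusted p = 0.0362 and 0.021), and that from DMSO was -1.01 after a cyclic loess. As a log2 value, the difference of DMSO from water was 0.06, with a 95% interval from -0.38 to 0.49. This was the 1 gene of the 16 called in baicalein against DMSO and not in DMSO against water. The share of all probe sets with that pattern was not counted. The mean levels of the germline and oocyte marker lists were lower with baicalein than with DMSO but higher with baicalein than with water. Their part in the falls of *acs-4* was not tested.

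The other 2 synthetase genes did not pass between baicalein and DMSO. The log2 values of *acs-19*, a gene of the acetyl-CoA synthetase type, were 8.50 and 8.90 with water, 7.86 and 7.81 with DMSO, and 8.36 and 8.46 with baicalein. DMSO was lowest with no overlap, and the fall from water was 1.82-fold (log2 difference -0.86, limma adjusted p = 0.0177). That call was lost without water replicate 2 (adjusted p = 0.129), DMSO replicate 1 (adjusted p = 0.0755) or DMSO replicate 2 (adjusted p = 0.0879). The log2 difference of *acs-19* between baicalein and DMSO was 0.57, with a 95% interval from 0.11 to 1.04 (adjusted p = 0.145). The gene *acs-22*, which encodes a protein of the fatty acid transport type, had values from 3.12 to 3.71 over the 6 arrays and passed in none of the 3 comparisons (adjusted p 0.124 to 0.775).

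In beta-oxidation, the acyl-CoA dehydrogenases take the first step in mitochondria, and the 2 dehydrogenase genes measured here went opposite ways. The log2 values of *acdh-7*, whose product resembles the medium-chain enzyme of mammals, were 8.07 and 7.86 with water, 6.90 and 6.76 with DMSO, and 7.65 and 7.52 with baicalein. The 3 groups did not overlap, with DMSO lowest and water highest. The fall from water to DMSO was 2.20-fold (log2 difference -1.14, limma adjusted p = 0.00372). The rise from DMSO to baicalein was 1.69-fold (log2 difference 0.75, SE 0.18, adjusted p = 0.0491), just inside the threshold, and it was not called when any 1 of the 6 arrays was left out (adjusted p 0.0635 to 0.203).

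For *acdh-13* the log2 values were 2.17 and 2.30 with water, 3.34 and 3.14 with DMSO, and 2.31 and 2.09 with baicalein. Both DMSO arrays were above the other 4, and the baicalein and water arrays overlapped. The rise from water to DMSO was 2.01-fold (log2 difference 1.01, limma adjusted p = 0.0069), and the fall from DMSO to baicalein 2.05-fold (log2 difference -1.04, SE 0.18, adjusted p = 0.0205). As a log2 value, the difference of baicalein from water was -0.03, with a 95% interval from -0.46 to 0.40. The rise with DMSO was lost without water replicate 1 (adjusted p = 0.0618).

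Peroxisomal beta-oxidation, which in worms also shortens the side chains of ascaroside pheromones, begins with acyl-CoA oxidases. The 1 oxidase gene named, *acox-1.3*, appears in the tables under its older symbol *acox-3*. On the log2 scale it read 2.76 and 2.61 with water, 3.56 and 3.38 with DMSO, and 2.77 and 2.82 with baicalein. DMSO was highest with no overlap, and baicalein lay just above water. The rise from water to DMSO was 1.72-fold (log2 difference 0.78, limma adjusted p = 0.0154), and it was lost without water replicate 1 (adjusted p = 0.0683), water replicate 2 (adjusted p = 0.117) or DMSO replicate 1 (adjusted p = 0.0828). The log2 difference of baicalein from DMSO was -0.67, with a 95% interval from -1.08 to -0.26, and did not pass (adjusted p = 0.0626).

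The genes *ech-7* and *ech-4* carry the symbol of the enoyl-CoA hydratase family, in which the hydratases add water across the double bond in the next step. Which reaction each of the 2 products carries out was not tested. The log2 values of *ech-7* were 8.57 and 8.40 with water, 7.80 and 7.83 with DMSO, and 8.73 and 8.50 with baicalein. The DMSO arrays were lowest, and the baicalein arrays overlapped with the water arrays. The rise from DMSO to baicalein was 1.74-fold (log2 difference 0.80, SE 0.18, limma adjusted p = 0.0414), and the fall from water to DMSO 1.60-fold (log2 difference -0.67, adjusted p = 0.031). The fall was lost without any 1 water or DMSO array (adjusted p 0.104 to 0.194). The values of *ech-4* were 3.10 and 3.31 with water, 3.03 and 3.01 with DMSO, and 3.41 and 3.58 with baicalein, and none of its 3 comparisons passed (adjusted p 0.176 to 0.486).

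The gene *lipl-7* encodes a lipase of the lysosomal type, which releases fatty acids from stored lipid. The arrays gave it log2 values of 2.07 and 2.35 with water, 2.66 and 2.58 with DMSO, and 2.74 and 2.52 with baicalein. The DMSO and baicalein arrays overlapped, and no comparison passed (limma adjusted p 0.159 to 0.993). The log2 difference from water was 0.41 with DMSO and 0.42 with baicalein, and both became calls after a second quantile normalization (0.75 and 0.99, adjusted p = 0.0189 and 0.00865) and after a cyclic loess (0.80 and 0.98, adjusted p = 0.00819 and 0.00511).

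The single sphingolipid gene, *asah-1*, encodes an acid ceramidase and had the largest rise of the 16 genes from water to DMSO. Its log2 values were 7.59 and 7.34 with water, 9.60 and 9.63 with DMSO, and 10.26 and 10.05 with baicalein. The groups did not overlap and stood in the order water, DMSO, baicalein. The rise from water was 4.44-fold with DMSO (log2 difference 2.15, SE 0.18, limma adjusted p = 0.000308) and 6.46-fold with baicalein (adjusted p = 0.000155), and both were called in all alternatives run. As a log2 value, the difference of baicalein from DMSO was 0.54, with a 95% interval from 0.11 to 0.98, and did not pass (adjusted p = 0.139), but was called with a variance that follows intensity (adjusted p = 0.0337). A second acid ceramidase gene, *asah-2*, is listed in the tables under a clone name, so it is no member, and it was chosen after its values were seen. It had log2 values of 4.99 and 4.85 with water, 7.15 and 7.23 with DMSO, and 7.79 and 7.48 with baicalein, in the same order, with a rise of 4.82-fold from water to DMSO (adjusted p = 0.000265).

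**Figure D2:**
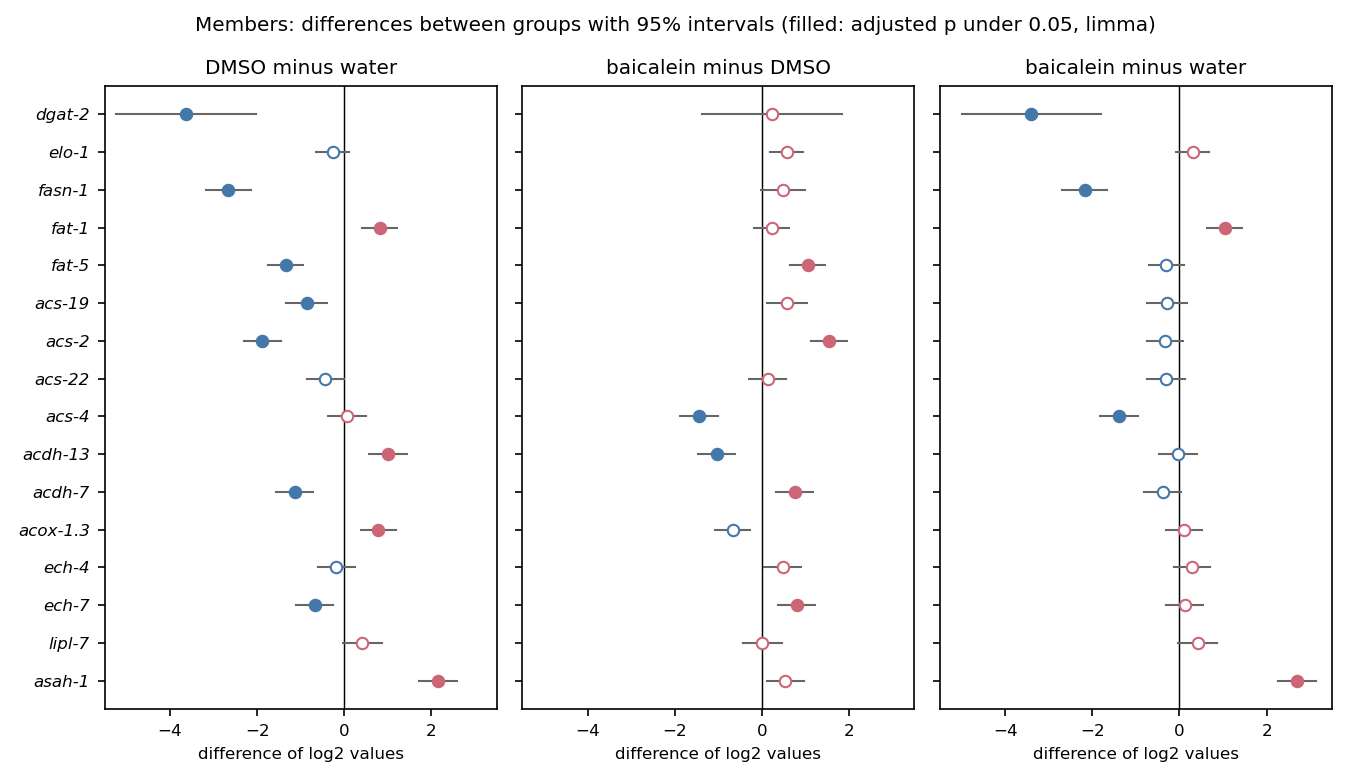
Differences of log2 values between groups (horizontal axes, 3 panels) for the 16 genes, with points for the difference of means and lines for the 95% intervals from limma, filled where the adjusted p is under 0.05. From DMSO to baicalein 4 genes are filled on the higher side and 2 on the lower, and the wide intervals of *dgat-2* stand out.

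Against water, baicalein worms differed in 5 of the 16 genes, where 22.2% of all probe sets were called, 6.79% higher and 15.4% lower (1992 and 4513 probe sets, against 2723 and 3107 after a second quantile normalization and 3097 and 3656 after a cyclic loess). Among the probe sets at least as bright as the dimmest member 39.9% were called. The genes *fat-1* and *asah-1* were higher and *dgat-2*, *fasn-1* and *acs-4* lower, while 11 genes did not pass. The call of *dgat-2* was lost without either water array (limma adjusted p = 0.0681 and 0.0797) and that of *fat-1* without water replicate 2 (adjusted p = 0.0608). Both comparisons with DMSO share the DMSO arrays, and the share of all probe sets lower with DMSO and higher again with baicalein was not counted. The 4 genes lower with DMSO than with water and higher with baicalein than with DMSO (*fat-5*, *acs-2*, *acdh-7* and *ech-7*) had log2 differences from water of -0.30, -0.34, -0.39 and 0.13. The intervals of these 4 reached from -0.81 to 0.55, so differences from water of that size could not be told from 0. The groups did not overlap in 14 of the 16 genes, against 69.1% of all probe sets. None of the 6 breakdown genes passed against water in the deposited scaling (limma, 0 of 6 also at an unadjusted p under 0.05), but *acox-1.3*, *ech-4* and *lipl-7* were called higher after a second quantile normalization (log2 differences 0.83, 1.06 and 0.99), and *acdh-13*, *ech-4* and *lipl-7* after a cyclic loess (0.53, 0.81 and 0.98).

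The calls between baicalein and DMSO were often lost when an array was left out. The log2 differences with each array left out were 1.415 to 1.665 for *acs-2*, 0.97 to 1.13 for *fat-5* and -1.60 to -1.29 for *acs-4*. They were -1.15 to -0.93 for *acdh-13*, 0.68 to 0.82 for *acdh-7* and 0.68 to 0.92 for *ech-7*. Leaving out a water array changed only the p-values, since water does not enter these differences. Without DMSO replicate 1, none of the 16 genes passed, and neither did any of the 29317 probe sets, with 0.0624 as the smallest adjusted p from limma. The genes were named at an unadjusted p of 0.05 or less in these same arrays. A count at an unadjusted p is therefore not given here. The lone DMSO array is assumed to vary like the other groups in the fit without DMSO replicate 1. For *acs-2* this was the only array whose omission ended the call (adjusted p = 0.0718). For *acs-4* it was either DMSO array (adjusted p = 0.08 and 0.0599), and for *fat-5* and *acdh-13* any water or DMSO array (adjusted p 0.0523 to 0.101 and 0.0614 to 0.128). For *ech-7* it was any array but baicalein replicate 2 (adjusted p 0.0688 to 0.18). The sign of each of these differences was the same in every one of these fits.

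**Figure D3:**
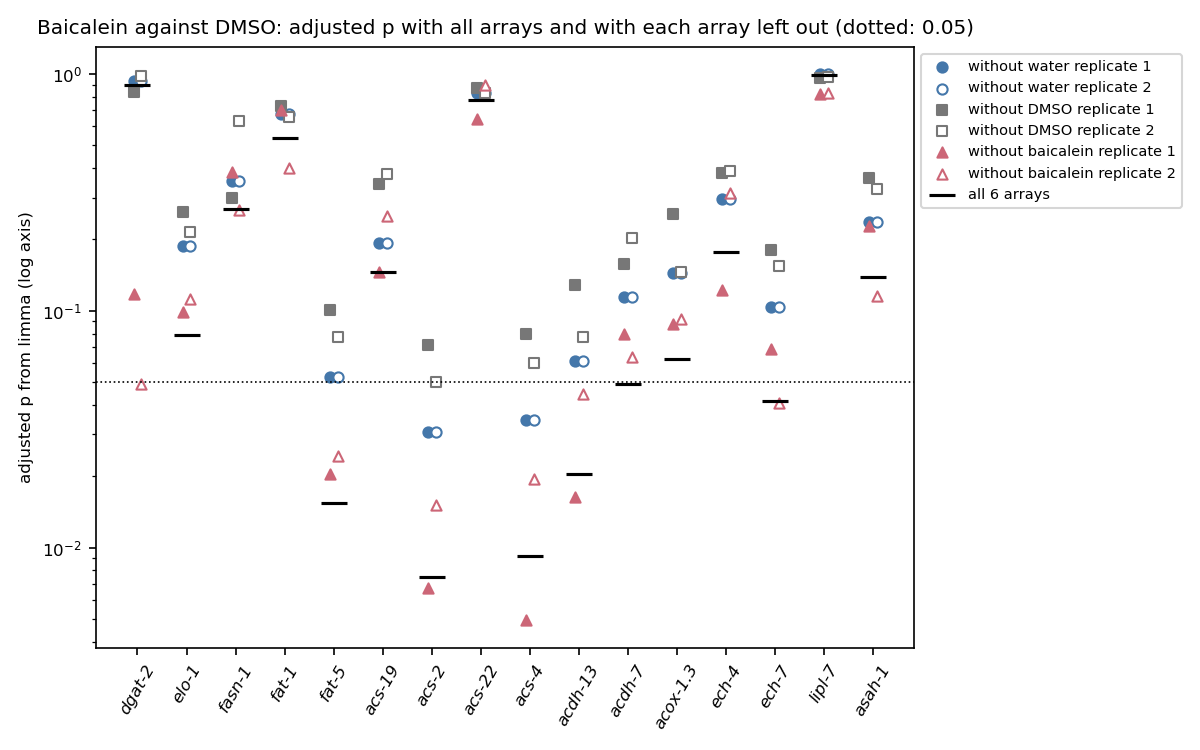
Adjusted p from limma (vertical log axis) for baicalein against DMSO in each of the 16 genes, with a bar for all 6 arrays and a symbol for each array left out, coloured by its group. The dotted line marks 0.05, and the symbol for DMSO replicate 1 left out lies above it for every gene.

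Other lipid genes, from lists of sphingolipid synthesis and turnover, fat breakdown, acyl transfer and phospholipid synthesis, fat binding and regulators, were measured beside these. The tables name 21 of them. Baicalein worms had 3 of the 21 higher than DMSO worms and 4 lower, against 1.73% and 7.03% of all probe sets. DMSO worms had 5 higher than water worms and 9 lower, against 10.9% and 16.7% of all probe sets. These genes too are named only by the authors' tables, so these counts and those of the single lists below are a description. The medians of their log2 differences were 0.36 and -0.21.

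The list of peroxisomal and mitochondrial breakdown gave 5 named genes of 15. With baicalein against DMSO 1 was called higher, the catalase gene *ctl-2*, and none lower. With DMSO against water 4 were called lower, *ctl-2* among them. The peroxisomal catalase gene *ctl-2* had log2 values of 8.32 and 8.38 with water, 7.35 and 7.26 with DMSO, and 8.39 and 8.42 with baicalein. The baicalein arrays lay just above the water arrays and the DMSO arrays far below both. It fell 2.07-fold with DMSO (limma adjusted p = 0.00358) and was 2.15-fold higher with baicalein than with DMSO (adjusted p = 0.0125), the latter lost without either DMSO array (adjusted p = 0.0841 and 0.0725). The thiolase gene *daf-22*, which acts in peroxisomal shortening of ascaroside side chains, fell 2.12-fold with DMSO (adjusted p = 0.00533), and its log2 difference of baicalein from DMSO was 0.76 (adjusted p = 0.0537). The gene *kat-1* of this list went the other way. Its log2 difference from water was 0.51 with DMSO (limma adjusted p = 0.0868) and 0.80 with baicalein (adjusted p = 0.0233). The call with baicalein was lost without either water array.

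In the list of acyl transfer and phospholipid synthesis, 9 of 12 genes were named, and with baicalein against DMSO 1 was higher and 2 lower. The phosphoethanolamine methyltransferase gene *pmt-1*, needed for making phosphatidylcholine, had log2 values of 7.13 and 6.98 with water, 6.93 and 6.76 with DMSO, and 7.79 and 8.11 with baicalein. The baicalein arrays stood above the other 4, with a 2.15-fold rise from DMSO (limma adjusted p = 0.0203). The acyltransferase gene *acl-6*, which acts at the start of glycerolipid synthesis, and the ATP citrate lyase gene *acly-2*, which supplies acetyl-CoA, were 2.56-fold and 2.66-fold lower with baicalein than with DMSO (adjusted p = 0.0232 and 0.0259). Both rose from water to DMSO, by 3.05-fold and 2.69-fold, and the rise of *acly-2* was lost without either water array (adjusted p = 0.0502 and 0.0558) or without DMSO replicate 1 (adjusted p = 0.0637). The calls of these 3 genes in baicalein against DMSO were lost without any 1 water or DMSO array (adjusted p 0.0547 to 0.165). The S-adenosylmethionine synthetase gene *sams-1* had log2 values of 6.07 and 6.04 with water, 4.69 and 4.14 with DMSO, and 5.08 and 4.78 with baicalein, a 3.12-fold fall with DMSO (adjusted p = 0.00275).

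Among the other lists, the fatty acid binding protein gene *lbp-1* had log2 values of 2.58 and 2.40 with water, 2.92 and 2.94 with DMSO, and 3.97 and 4.11 with baicalein. Both baicalein arrays were above the rest, and the rise from DMSO was 2.17-fold (limma adjusted p = 0.0142), lost without either DMSO array (adjusted p = 0.0976 and 0.0751). The nuclear receptor gene *nhr-66* fell 2.04-fold from DMSO to baicalein (adjusted p = 0.0195), a call lost without any 1 water or DMSO array (adjusted p 0.0621 to 0.103). The transcription factor gene *klf-3*, known for its part in fat storage, fell 4.04-fold from water to DMSO (adjusted p = 0.00376). Of the 18 sphingolipid genes listed only *gba-2* and *ttm-5* were named, and both were lower with DMSO and with baicalein than with water, while *asah-1* and *asah-2* were higher. With baicalein the call of *gba-2* was lost without either water array (limma adjusted p = 0.11 and 0.0862) and that of *ttm-5* without water replicate 2 (adjusted p = 0.0872). The log2 values of *gba-2*, a glucosylceramidase gene, were 2.14 and 2.04 with water, 1.16 and 0.91 with DMSO, and 1.25 and 1.22 with baicalein, so the last 2 groups lay under the median of all values and the size of its fall is not given. The dihydroceramide desaturase gene *ttm-5* had 5.53 and 6.05 with water, 3.71 and 3.09 with DMSO, and 3.98 and 2.49 with baicalein, a 5.25-fold fall with DMSO (adjusted p = 0.0126) that was lost without water replicate 2 (adjusted p = 0.0828) or DMSO replicate 2 (adjusted p = 0.0947).

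**Figure D4:**
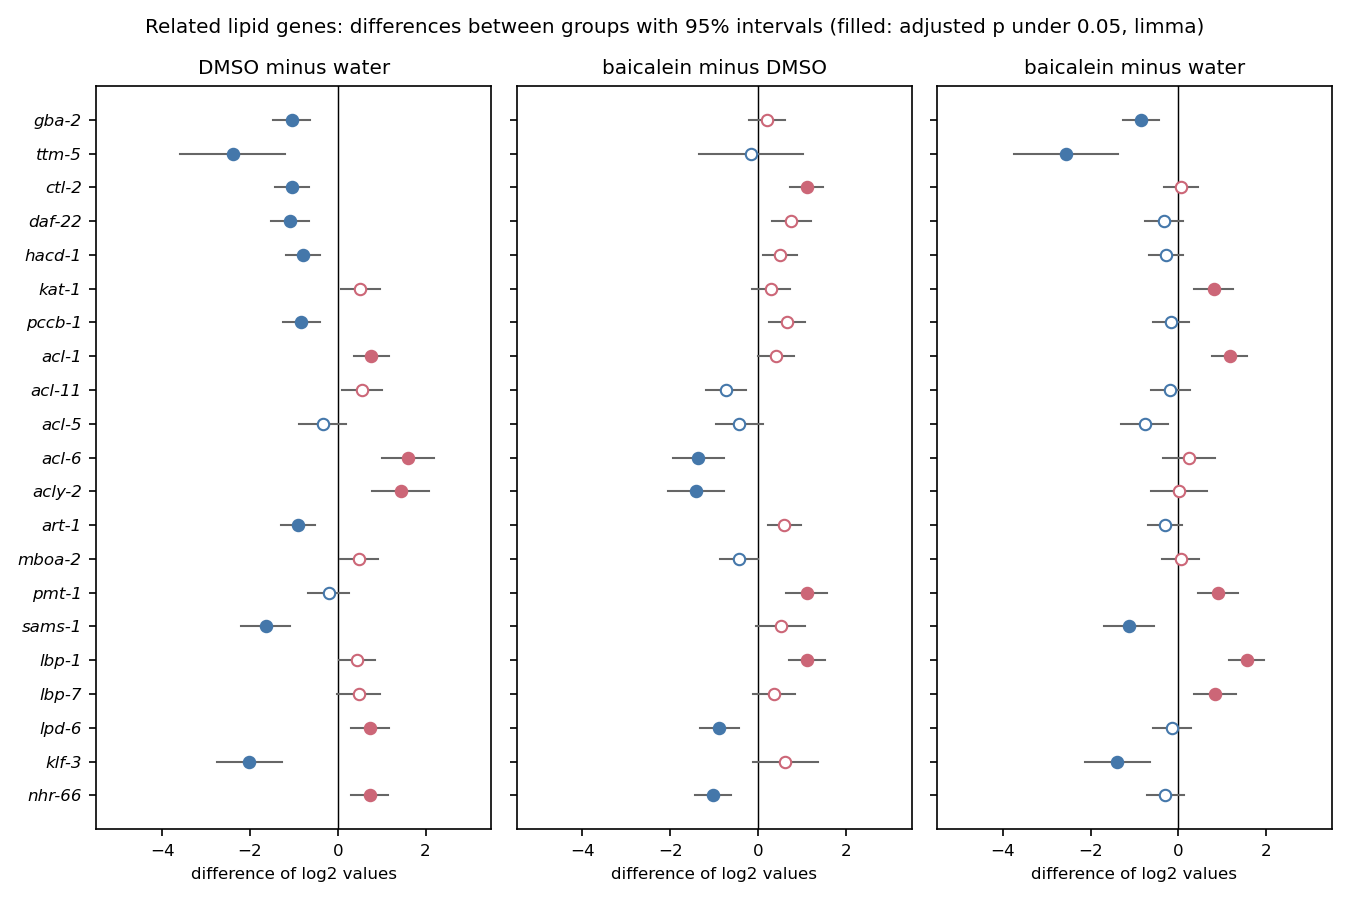
Differences of log2 values between groups (horizontal axes, 3 panels) for the 21 related lipid genes, with points for the difference of means and lines for the 95% intervals from limma, filled where the adjusted p is under 0.05. From DMSO to baicalein 3 genes are filled on the higher side and 4 on the lower.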

How the data were processed

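Total RNA of whole worms was read on 6 arrays, 2 each for water, DMSO and baicalein. The deposited log2 values were made by the authors with RMA, that is background correction, a log2 scale and quantile normalization, from the arrays' raw intensities. The version and the annotation used for it are not given in the sources used here, nor is which arrays were normalized together. The study's methods give triplicates, and 2 arrays per group were used here. For baicalein against DMSO and DMSO against water the authors also deposited tables of probe sets past their own analysis of variance, with p-values, ratios, fold changes, F and sums of squares. Only their gene names were used. Control probe sets are not marked in the values and stayed in the fit.

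Names cover 4955 of the 29317 probe sets. Of the 16 members, 15 were matched to RefSeq (WBcel235) by accession and *ech-4* by symbol. No coordinates are given because the build behind the array annotation is not stated.

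Differences were fitted with limma 3.58.1 in R 4.3.3 (3 groups, 3 residual degrees of freedom, prior 3.51), with no filter on dim probe sets. Adjusted p-values are Benjamini-Hochberg values over all probe sets for each comparison. Summaries were drawn up with pandas 2.3.3 and numpy 2.4.6 in Python 3.11.15. The fit was tested on simulated data. Named are all synthesis and sphingolipid genes and, in the other classes, up to 8 genes of smallest p in each of the first 2 comparisons and up to 4 in the third, with up to 6 examples among related genes. Members and lists were chosen with earlier results of these data known.

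Alternatives were a variance trend, only the compared groups, median centring, a second quantile normalization, a cyclic loess, removal of dim probe sets, dim values raised to the median of all values, a replicate block, the methods' analysis of variance with and without adjustment, an unadjusted p, and each array left out. Same-numbered arrays were also checked for shared deviations. Another background correction and the slide as a block could not be run without scanner files.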

Additional observations from a re-analysis of the deposited data

How the results depend on the processing

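The limits are few arrays, unequal array distributions and names that come only from probe sets in the authors' tables. For baicalein against DMSO, 4 members were called higher and 2 lower. These counts were 1 and 1 with only the compared groups, and 0 and 0 with the methods' analysis of variance after adjustment. At an unadjusted p they were 8 and 3, both in that analysis and in limma. Over all 29317 probe sets an unadjusted p gave 2007 higher and 3025 lower in that analysis, and 2280 and 3866 in limma. The members were named at such a threshold, so the 8 and 3 are no independent evidence. A variance trend gave 6 higher (*elo-1* and *asah-1* added), centring on medians left 2 higher, and raising dim values to the median of all values left 1 lower. Leaving out each array in turn gave 0 to 4 higher and 0 to 2 lower, 1 to 4 higher and 4 to 7 lower for DMSO against water, and 1 to 2 higher and 2 to 3 lower for baicalein against water. In the last comparison quantile or loess normalization gave 5 higher (breakdown genes added), and the methods' unadjusted p 5 lower. Same-numbered arrays deviated together weakly (correlations -0.05, -0.07 and 0.16), so the numbers were not taken as pairs. With the replicate block, 2 members were called higher and 2 lower for baicalein against DMSO, and *acdh-7* and *ech-7* lost their calls. The block changed no other call of a member. The call of *ech-7* was also lost after quantile or loess normalization. For DMSO against water, *dgat-2* and *acs-19* lost their calls when dim values were raised and in the adjusted analysis of variance, and *ech-7* lost its call there and after centring. For baicalein against DMSO, *fasn-1* gained a call after quantile and loess normalization (0.98 and 0.79). The cause of these changes was not tested.

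Differences that changed sign were these. For baicalein against DMSO, *dgat-2* had -0.89 to 1.36 with each array left out (-0.088 without DMSO replicate 2), *fat-1* had -0.19 after loess, and *lipl-7* had -0.086 after centring and -0.10 to 0.11 with each array left out. For DMSO against water, *acs-4* had -0.058 after loess and *ech-4* 0.15 after quantile normalization. For baicalein against water, *acs-22* had 0.43 after quantile and 0.19 after loess normalization, *ech-7* had -0.056 after quantile normalization, and *acdh-13* had 0.41 and 0.53 after quantile and loess normalization and -0.14 to 0.078 with each array left out. Over all probe sets the median difference of DMSO from water was 0.09, and 0.20 after centring. Over all members and alternatives, 208 values kept direction and side of the threshold for baicalein against DMSO, 42 lost and 16 gained a call and 6 changed sign. For DMSO against water these numbers were 240, 22, 8 and 2, and for baicalein against water 249, 5, 11 and 7.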
